A study of Rattus norvegicus and Bos taurus with 12 samples.

Results

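The integrins, laminins, cadherins and neighbouring adhesion genes described here were chosen by symbol alone. The symbols covered integrin subunits and genes named after them, laminin chains, nidogens, perlecan, cadherins other than Cdh2 and Cdh5, protocadherins, syndecans 1 to 4, Cd44, and the NCAM, VCAM and ICAM genes. Of 7052 genes listed for rat myocytes 42 were such genes, and of 2115 genes listed for calf fibroblasts 25 were. Listed in both were 13, which gave 54 different genes.

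RNA sequencing covered 12 libraries in 4 groups of 3. Adult rat ventricular myocytes (ARVM) of healthy adult Sprague Dawley rats, isolated by collagenase perfusion of the heart, were sequenced either freshly isolated (libraries labelled con4, con5 and con6) or after 7 days in conditioned media of fibroblasts from calves with pulmonary hypertension (PH-CM; libraries labelled ha2, ha209 and ha211). Cardiac fibroblasts (Cfib) from the right ventricle of neonatal calves, cultured at low passage, came from control calves kept at the altitude of Denver (CO; libraries 1, 2 and 3) or from calves in which low atmospheric pressure had caused pulmonary hypertension (PH; libraries 1, 2 and 3). In the labels, unlike in the paper, the treatment field of every group names cow serum, from low altitude for controls and from high altitude otherwise. The group names of the paper are used here. Myocytes were plated on laminin for culture, and no myocytes cultured without PH-CM were analysed here, so time in culture, the laminin coat and the conditioned media cannot be told apart in the ARVM comparison. By the study's account the Cfib libraries of a group came from separate animals. For ARVM nothing in the labels says that the libraries of a group came from separate animals or cultures, so p-values there measure only the spread between libraries, which may be technical.

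Integrins are receptors made of an alpha and a beta subunit that bind the matrix outside the cell and, through talin, kindlin and the ILK complex, the actin inside it. Laminins are trimers of an alpha, a beta and a gamma chain and form the sheet of the basement membrane around each cardiac myocyte, where nidogens tie them to collagen IV. Classical cadherins join cell to cell through catenins, and syndecans are heparan sulfate proteoglycans that act beside integrins. In striated muscle the laminin receptors are the integrin with the Itga7 alpha subunit and the dystroglycan and sarcoglycan complex.

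Both deposited tables hold only genes that the authors had selected for a difference between the groups. Every adjusted p was thus adjusted over selected genes and is no independent evidence of a difference. A gene without a row may or may not have changed. The groups did not overlap for any of the 42 or 25 genes, and the same held for 100% of all genes listed in each table, so a lack of overlap sets no adhesion gene apart. The ARVM libraries held between 12122463 and 18842171 reads on listed genes. The depth of the Cfib libraries is unknown. In bulk RNA, fewer cells of a type and less RNA per cell cannot be told apart. All 10 cardiomyocyte markers were lower in PH-CM ARVM, with a summed level of 1498140 to 1548620 in the freshly isolated and 128412 to 156607 in the PH-CM libraries. Over the same libraries the 10 fibroblast markers rose, with sums between 1487 and 2030 in the freshly isolated and between 87299 and 130214 in the PH-CM libraries. The 8 leukocyte markers described here rose as well, with sums between 219 and 302 and between 2537 and 3799. Of the 10 smooth muscle and pericyte markers 8 rose, and Rgs5 and Cspg4 fell. The sum of the 10 was 4082 to 4770 in the freshly isolated and 32604 to 51163 in the PH-CM libraries. Of the 10 endothelial markers 9 fell and Emcn rose. The hemoglobin genes Hbb, Hba1 and Hbb-b1 fell to 0 in PH-CM, and no Schwann cell or neural marker was listed in either table. In Cfib no cardiomyocyte or red cell marker was listed, all 3 listed fibroblast markers and 6 of 7 listed smooth muscle and pericyte markers were higher in PH, the endothelial ESAM was lower, and of the 4 listed leukocyte markers 3 were higher (TYROBP by 0.77, CD68 by 0.51 and LAPTM5 by 0.41 on the log2 scale) and CD14 was lower (−1.42). The sum of these 4 was 9.81 to 12.7 in CO and 8.49 to 9.90 in PH. The part that a changed mix of cells had in the results below was not tested.

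In ARVM most of the listed adhesion genes were higher after PH-CM, and the 9 that fell included both listed laminin-binding alpha subunits and the laminin chains Lamb2 and Lamc1. On log2(value + 1), limma called 32 of the 42 higher, where 53.9% of all listed genes were called higher, and 9 lower, where 43.7% of all listed genes were. At a change of at least 2-fold, 26 were higher (background 32.3%) and 3 lower, Itgb1bp2, Cdh16 and Pcdhgb7 (background 16.0%). Of these 3, Pcdhgb7 lay close to the cutoff, at −1.02 and between −1.25 and −0.72 with a library left out. The median log2 fold change over the 42 was 1.41, beside 0.37 over all listed genes, and the range ran from −3.65 for Itgb1bp2 to 7.78 for Cdh3. Without any read in the freshly isolated libraries were Itga4 and Pcdha3, and with them at the lower bounds given below the median is the same, since both bounds lie above it. The only gene of the 42 not called was Pcdhb21.

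**Figure D1:**
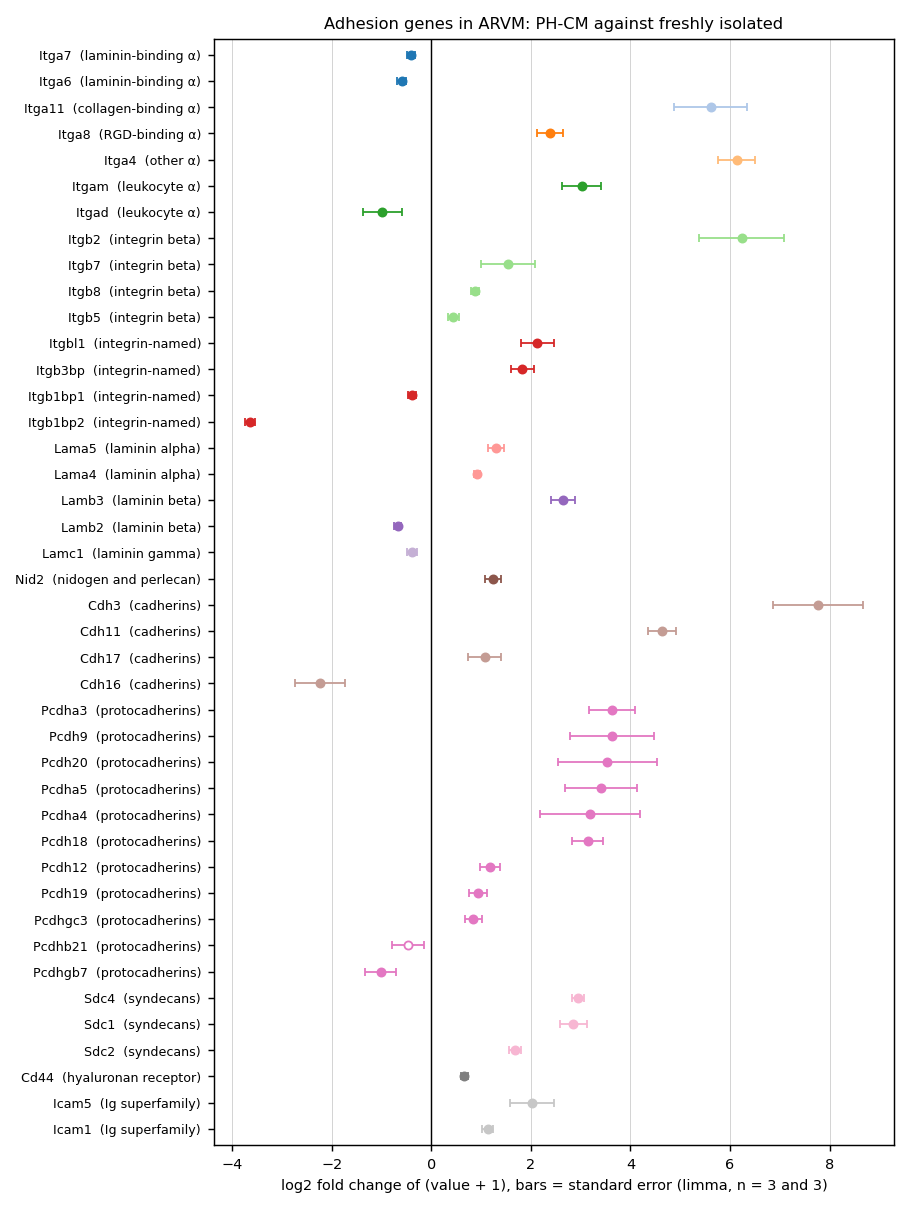
Log2 fold change of (normalized count + 1) of the 42 adhesion genes in ARVM, PH-CM against freshly isolated (n = 3 and 3), with standard errors from limma and the role of each gene in brackets; the open circle is the gene not called. The 9 called genes left of 0 include Itgb1bp2 at −3.65 and both laminin-binding alpha subunits, and Cdh3 at 7.78 lies farthest right at this pseudocount.

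Itgb1bp2 encodes melusin, a chaperone of striated muscle that binds the tail of the integrin beta subunit, and it is no integrin itself. Normalized counts of Itgb1bp2 were 3178, 2961 and 2802 in the freshly isolated libraries and 268, 223 and 220 in PH-CM. No listed gene had overlapping groups, and here every PH-CM library was far below every freshly isolated one. The mean fell 12.6-fold, from 2980 ± 189 to 237 ± 26.8 (SD, n = 3), which is −3.65 as a log2 fold change with a standard error of 0.10 (limma adjusted p = 1.05e-07). It moved the same way as the cardiomyocyte markers, whose log2 fold changes ran from −6.62 to −0.66. Of the other genes that carry an integrin's name without being one, Itgb1bp1, a cytoplasmic binder of the same integrin tail, was 965, 889 and 916 against 744, 701 and 666, a smaller log2 fold change of −0.39. Itgb3bp, a centromere protein, rose from 52.2, 54.6 and 44.4 to 159, 169 and 220 (log2 fold change 1.83). Itgbl1, a secreted protein with integrin-like repeats, rose from 23.7, 41.8 and 47.5 to 185, 121 and 189 (2.13).

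The promoter of Itgb1bp2, the adhesion gene with the largest fall, is shown as the 250 bases before the annotated start in the RefSeq sequence of rat GRCr8, chrX:70612271-70612520 on the plus strand. Capitals mark CCAAT boxes (CCAAT, searched on both strands), here both read from the other strand, at −224 and −122 from the start.
Itgb1bp2 promoter: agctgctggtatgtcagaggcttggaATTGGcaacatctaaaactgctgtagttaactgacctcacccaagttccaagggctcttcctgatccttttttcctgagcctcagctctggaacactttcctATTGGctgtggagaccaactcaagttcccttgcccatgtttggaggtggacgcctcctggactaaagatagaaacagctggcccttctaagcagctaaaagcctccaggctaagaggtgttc
A CCAAT box was present in 9 of the 27 adhesion promoters that RefSeq's table held and in 34.3% of all 27457 promoters of that length. The letters of a MEF2 site were found in none of the 27 (0.572% of all) and those of a CArG box in none (1.501% of all), which says only that these letters are not in these windows.

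Laminin-binding alpha subunits fell and the other listed alpha subunits mostly rose. Itga7, the main alpha subunit of adult striated muscle, was 9878, 10574 and 11545 in freshly isolated ARVM and 8577, 7867 and 7552 in PH-CM. The log2 fold change of Itga7 from limma was −0.41 with a standard error of 0.08 and an adjusted p of 0.00141. Itga6, a laminin receptor of many epithelia and of endothelium, fell from 1722, 1385 and 1655 to 1074, 1014 and 1051 (log2 fold change −0.59, standard error 0.09, adjusted p = 4.59e-04). The ratio of Itga6 to Itga7 within a library, which is not per length, was 0.1495 ± 0.0223 against 0.131 ± 0.00726 (SD, n = 3), and the exact permutation test of that ratio gave a two-sided p of 0.2, where 0.1 is the smallest 3 against 3 allow. Over all 10 ratios tested in ARVM and Cfib, Benjamini-Hochberg adjustment put a p of 0.1 at 0.111.

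Subunits for fibrillar collagen, fibronectin and VCAM rose from low levels. Itga11, a collagen receptor of fibroblasts, was 6.33, 0 and 5.17 in freshly isolated ARVM and 142, 162 and 228 in PH-CM (log2 fold change 5.62, standard error 0.73, adjusted p = 2.02e-04, limma), with values from 4.70 to 6.14 when each library was left out. No read of Itga4, which binds fibronectin and VCAM1, was counted in the freshly isolated libraries, and PH-CM gave 74.1, 50.04 and 88.9. From 0 against 261 reads it was at least 60.2-fold higher, with 3 reads over the group as the limit a count of 0 allows. Itga8, a receptor for nephronectin and fibronectin found on mesenchymal cells, rose from 80.7, 51.4 and 72.3 to 344, 278 and 462 (2.38, standard error 0.26, adjusted p = 7.72e-05). The groups did not overlap for these genes, as for all listed genes. Over the same libraries the fibroblast marker sum rose from at most 2030 to at least 87299.

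Itgam and Itgb2 encode the subunits of the complement receptor of macrophages and neutrophils. Itgam was 53.8, 19.3 and 34.1 in freshly isolated ARVM and 234, 242 and 362 in PH-CM (log2 fold change 3.02, standard error 0.38, adjusted p = 1.79e-04, limma). Itgb2 was 9.50, 7.50 and 0 against 377, 221 and 453 (6.23, standard error 0.85, adjusted p = 2.56e-04), and between 5.15 and 6.85 with a library left out. The 7 other listed leukocyte markers rose too, Laptm5 by 5.06 and Ptprc by 5.41 on the log2 scale. Itgad, another partner of Itgb2, had 31.7, 36.4 and 29.96 against 15.1, 25.9 and 10.2, a log2 fold change of −0.99, and its adjusted p of 0.0376 rose to 0.0557 with edgeR and 0.103 with DESeq2. The call of Itgad was also lost without con4 (adjusted p = 0.0616), con5 (0.0867) or con6 (0.0571) and without ha2 (0.0869) or ha211 (0.113).

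Among the beta subunits, Itgb1, the common partner of the laminin and collagen receptors, was not listed. Itgb5, which pairs with Itgav to bind vitronectin, was 1049, 1159 and 1127 against 1733, 1273 and 1555, 0.44 higher as log2 (standard error 0.11, limma adjusted p = 0.00640). Itgb8, which with Itgav activates latent TGF-beta, rose from 510, 533 and 492 to 961, 877 and 975 (0.87, standard error 0.08, adjusted p = 3.67e-05). Their ratio within a library, Itgb8 over Itgb5 and not per length, went from 0.461 ± 0.0247 to 0.623 ± 0.0670 (SD, n = 3, exact permutation p = 0.1, two-sided, the smallest possible). Itgb7, a lymphocyte subunit, rested on 2 reads in the freshly isolated and 12 in the PH-CM libraries, with values of 0, 2.14 and 0 against 2.27, 4.31 and 3.39 (adjusted p = 0.0249). Its call was lost with edgeR (adjusted p = 0.0940) and DESeq2 (0.315), without con4 (0.0735) or con6 (0.0718) and without ha209 (0.0646) or ha211 (0.0555).

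**Figure D2:**
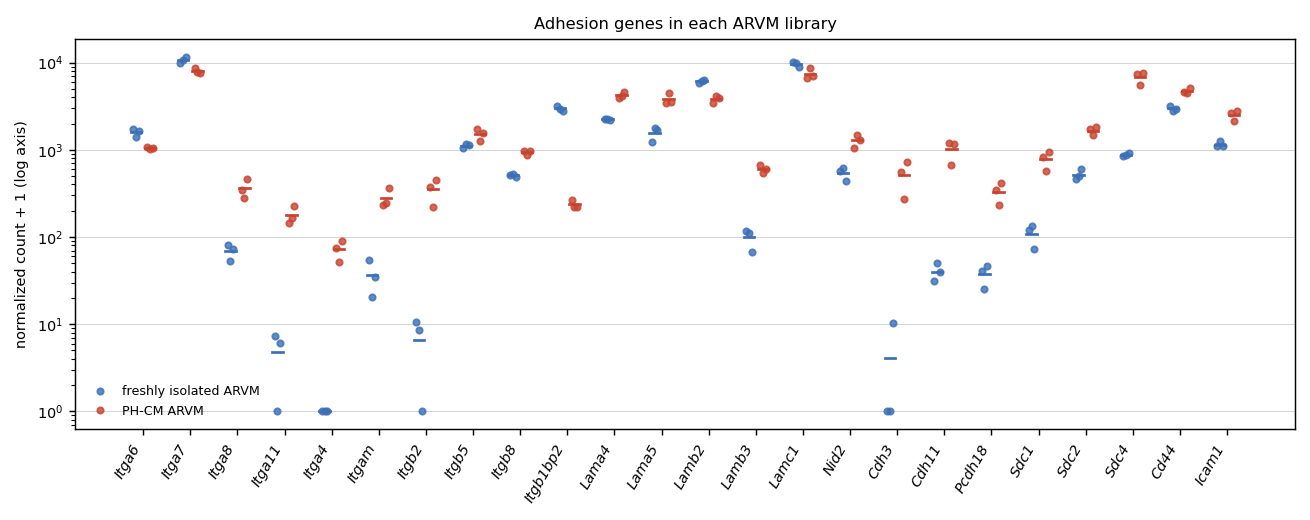
Normalized count + 1 of 24 adhesion genes in each freshly isolated (blue) and each PH-CM (red) ARVM library on a log axis, with a bar at each group's mean; values of different genes are not per length. Itga6, Itga7, Itgb1bp2, Lamb2 and Lamc1 are lower and the other 19 higher in PH-CM, with no overlap of the groups, as for all listed genes.

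The laminin chains of ARVM changed in composition. Lamb2, the beta chain of the laminin of mature muscle, fell from 5808, 6231 and 6376 to 3479, 4160 and 3897 (log2 fold change −0.68, standard error 0.08, adjusted p = 9.48e-05, limma). Lamc1, the gamma chain shared by most laminins, fell from 10056, 9871 and 8939 to 6704, 8569 and 6995 (−0.38, standard error 0.10, adjusted p = 0.00695). Both falls were modest, and their lack of overlap between groups is shared by all listed genes. Alpha chains went the other way. Lama4, the alpha chain of blood vessels that is also present around myocytes, rose from 2247, 2237 and 2194 to 3885, 4164 and 4574 (0.92, standard error 0.07, adjusted p = 9.59e-06). Lama5, an alpha chain of vessels and epithelia, rose from 1215, 1789 and 1695 to 3414, 4444 and 3578 (1.29, standard error 0.16, adjusted p = 1.47e-04). Lamb3, a chain of the epithelial laminin of hemidesmosomes, rose from 117, 111 and 66.1 to 669, 540 and 598 (2.64, standard error 0.24, adjusted p = 2.56e-05). Markers of endothelium, which is known to make Lama4 and Lama5, went down over the same libraries. Their sum was 11129 to 13556 in the freshly isolated and 4564 to 5268 in the PH-CM libraries. The sum of the smooth muscle and pericyte markers went up, from at most 4770 to at least 32604, with PH-CM means of 21540 for Tagln and 10008 for Acta2. In that list Rgs5 (−1.36) and Cspg4 (−0.46) fell. The sum of the fibroblast markers went from at most 2030 to at least 87299. Which cells these laminin transcripts came from was not tested. Lama2, the alpha chain typical of the muscle basement membrane, was not listed.

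Ratios within a library show the shift between chains apart from the scaling of libraries. Lama5 over Lamb2 was 0.254 ± 0.0402 in freshly isolated ARVM and 0.989 ± 0.0754 in PH-CM (SD, n = 3), 3.89 times higher. Lama4 over Lamb2 went from 0.363 ± 0.0217 to 1.10 ± 0.0881, 3.02 times higher. For the chains that both fell, Lamc1 over Lamb2 was 1.57 ± 0.165 and 1.93 ± 0.132, 1.23 times higher. In each of these 3 ratios every PH-CM library lay above every freshly isolated one, and the exact two-sided permutation p was 0.1, the smallest possible. For Lama5 and Lama4 over Lamb2 this outcome was fixed in advance. No listed gene had overlapping groups, and the genes of these pairs moved in opposite directions, so separation and p add no support. The counts are not scaled by transcript length, so the ratios tell of change and not of chain stoichiometry.

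Nid2, a linker of laminin to collagen IV, rose from 573, 613 and 441 to 1050, 1493 and 1300 (log2 fold change 1.24, standard error 0.16, adjusted p = 2.11e-04, limma), while Nid1 and Hspg2 were not listed. Of 10 other basement membrane genes 4 were listed and all 4 were higher, where 53.9% of all listed genes were called higher. Among the 4 were Sparc, a collagen chaperone of the matrix, at 2.26, Col4a3 at 1.67 and Col18a1 at 1.65 on the log2 scale. Most genes of the other laminin receptor fell, as Itga7 did. Of 9 genes of the dystroglycan and sarcoglycan complex 8 were listed, and 7 of these fell, where 43.7% of all listed genes were called lower. Among the 7 were Sgca (−1.43), Sgcd (−1.30) and Sspn (−1.19). Dag1, the gene of dystroglycan itself, fell less, from a mean of 4630 to 3885 (log2 fold change −0.25, standard error 0.05). The listed gene that rose was Sgce, the sarcoglycan expressed outside muscle as well, with a log2 fold change of 2.003.

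Among cadherins other than Cdh2 and Cdh5, 4 were listed, 3 of them higher in PH-CM, where 53.9% of all listed genes were called higher. Cdh5, left out here and counted as an endothelial marker, fell (−0.98). Cdh3, P-cadherin of epithelia, was 0, 0 and 9.30 in freshly isolated ARVM and 560, 269 and 717 in PH-CM. With 9 reads in all freshly isolated libraries the log2 fold change of 7.78, with a standard error of 0.90 and an adjusted p of 1.08e-04 from limma, ran from 7.22 to 8.90 with a library left out. Cdh11, a cadherin of mesenchymal cells such as fibroblasts, rose from 30.1, 49.3 and 38.2 to 1201, 674 and 1161, a mean of 39.2 ± 9.64 against 1012 ± 294 (SD, n = 3; log2 fold change 4.64, standard error 0.28, adjusted p = 3.29e-06). Epithelial and mesothelial markers rose beside Cdh3, with Krt8, Krt18 and Msln listed of 7 and their sum going from 88.9 to 119 up to 2204 to 4700, while Cdh1 and Epcam were not listed. Cdh17, an intestinal cadherin, had 47.5, 57.8 and 32.0 against 113, 112 and 67.7 (1.08, adjusted p = 0.0140), a call lost without ha2 (adjusted p = 0.0570) or ha209 (0.0510). Cdh16, known from kidney epithelium, fell from 138, 190 and 146 to 60.5, 40.5 and 13.5 (−2.23, standard error 0.51, adjusted p = 0.00354). Of 8 catenin complex genes 2 were listed, Ctnnd1 (p120 catenin) at 0.58 and Jup (plakoglobin of desmosomes) at −0.82.

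Protocadherins, cadherin relatives best known from neurons, gave 11 listed genes, of which 9 were called higher (background 53.9%) and 1 lower (background 43.7%). Pcdh18, of mesenchyme and the nervous system, had 39.6, 24.6 and 45.5 against 342, 235 and 410 (log2 fold change 3.14, standard error 0.31, adjusted p = 4.68e-05, limma). Pcdhgc3 rose from 605, 922 and 864 to 1218, 1516 and 1505 (0.84), Pcdh12, known from endothelium, by 1.18, Pcdh19 by 0.94 and Pcdh9, with 7 reads in the freshly isolated libraries, by 3.62. No freshly isolated library held a read of Pcdha3, while it had 12.1, 6.04 and 19.5 in PH-CM and was thus at least 10.6-fold higher from 0 against 46 reads. Low counts also marked Pcdh20 with 19.0, 9.64 and 0 against 66.5, 69.9 and 68.6, whose log2 fold change of 3.54 was 2.25 without con6, and Pcdha5 with 5 reads in the freshly isolated libraries and a change of 3.41. For Pcdha4 the change of 3.18 became 1.90 without con5, and the call was lost without ha211 (adjusted p = 0.0611) and at a pseudocount of 0.1 (0.0579). Pcdhgb7 fell from 127, 163 and 183 to 83.9, 106 and 49.9 (−1.02), and Pcdhb21 had 23.7, 25.7 and 23.8 against 21.2, 18.1 and 13.5, with an adjusted p of 0.175. Genes of the alpha, beta and gamma clusters share exons or near-identical copies, so their counts are uncertain.

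All 3 listed syndecans rose at least 2-fold (background 32.3%). Sdc4, the syndecan of focal adhesions, was 845, 868 and 910 in freshly isolated ARVM and 7402, 5552 and 7514 in PH-CM. Its mean rose 7.80-fold, from 874 ± 33.0 to 6822 ± 1102 (SD, n = 3; log2 fold change 2.95, standard error 0.12, adjusted p = 3.76e-07, limma), the smallest adjusted p among the adhesion genes that rose. Sdc1, the syndecan of epithelia and plasma cells, rose from 119, 132 and 72.3 to 826, 565 and 936 (2.85, standard error 0.27, adjusted p = 3.76e-05). Sdc2, of mesenchymal cells, rose from 456, 503 and 597 to 1720, 1468 and 1802 (1.68, standard error 0.12, adjusted p = 8.18e-06). The rise of Sdc4 exceeded that of Sdc2 within libraries, with a ratio of 1.70 ± 0.166 in freshly isolated ARVM and 4.09 ± 0.270 in PH-CM (n = 3, exact permutation p = 0.1, two-sided, the smallest possible).

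The 250 bases before the start of Sdc4 are shown because its rise had the smallest adjusted p, again from RefSeq's rat GRCr8, chr3:173592924-173593173 on the minus strand. Capitals mark GC boxes (GGGCGG, searched on both strands), which begin at −169, −157, −80, −58 and −53, the last 2 overlapping in a base.
Sdc4 promoter: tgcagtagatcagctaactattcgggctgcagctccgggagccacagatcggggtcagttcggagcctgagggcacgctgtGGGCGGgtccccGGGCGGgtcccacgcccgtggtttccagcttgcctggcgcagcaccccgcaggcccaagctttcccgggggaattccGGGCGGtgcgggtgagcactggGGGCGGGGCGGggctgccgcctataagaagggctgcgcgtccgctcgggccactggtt
A GC box was present in 10 of the 27 adhesion promoters and in 32.4% of all promoters of that length. A TATA box (TATAAA, both strands) was found in 3 of the 27, against 13.1% of all, and the letters of an AP-1 site (TGANTCA, both strands) in none, against 6.36%.

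Cd44, the hyaluronan receptor, rose moderately, from 3170, 2805 and 2957 to 4556, 4479 and 5052 (log2 fold change 0.66, standard error 0.07, adjusted p = 7.13e-05, limma). Icam1, which leukocytes bind on endothelium and on inflamed cells, rose from 1097, 1246 and 1090 to 2611, 2131 and 2799 (1.13, standard error 0.11, adjusted p = 3.99e-05). Icam5, first known from neurons, had far fewer reads, with 7.91, 5.36 and 6.20 against 15.9, 42.3 and 36.4 (2.02). Vcam1 and Ncam1 were not listed.

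The inner partners of integrins went in both directions, as all listed genes did. Of 22 genes of integrin activation and focal adhesion 15 were listed. From freshly isolated to PH-CM libraries 10 of these rose (66.7%) and 5 fell. Of all listed genes 53.9% were called higher and 43.7% lower. Higher were the hematopoietic kindlin Fermt3 (log2 fold change 2.24), the actin crosslinker Flna (2.15) and Actn1, the alpha-actinin of adhesions (1.99). Lower were Lims2 (−1.70), Parvb (−1.10) and Lims1 (−1.02), whose proteins form the complex with ILK, although Ilk itself (0.52) and Parva (0.70) were higher. Ligands of integrins outside the basement membrane rose in 7 of 9 listed genes (77.8%, background 53.9%). Among the 7 were Postn, also a fibroblast marker, at 6.97, Nov at 6.81 and Tnc at 6.79. Vtn, vitronectin (−2.37), and Cyr61 (−0.41) fell.

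In Cfib nearly all listed adhesion genes were higher in PH. With limma 23 of the 25 were called higher, where 58.2% of all listed genes were, and 2 lower, where 39.4% were. At a change of at least 2-fold 15 were higher (background 19.7%) and 0 lower (background 14.3%). The 2 that were lower, SDC1 and ITGB3BP, had log2 fold changes of −0.94 and −0.49, short of 2-fold, so the count of 0 is the same at an unadjusted p, and with the median of ratios it was 1. The median log2 fold change over the 25 was 1.26, beside 0.33 over all listed genes. Rescaling libraries by the median of ratios moved log2 fold changes down, the median shift being −0.27, and gave 22 higher and 2 lower adhesion genes, beside 39.7% and 41.1% of all listed genes. The 3 PH libraries lay close together, and with their mean taken as a single sample 12 were called higher and 1 lower. The calls lost in this way were those of CDH13, ITGA2, ITGA6, ITGA10, ITGB3BP, ITGB4, LAMA4, LAMB2, LAMC1, NCAM1, SDC2 and SDC3, with adjusted p from 0.0506 to 0.140. At a pseudocount of 10 the count at least 2-fold higher was 7. Whether the deposited Cfib values are scaled by gene length was not settled, so levels of different genes were not compared.

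CO library 3 was low for many of these genes. It was the lowest of the 3 CO libraries in 21 of the 25 adhesion genes (84.0%), beside 45.5% of all listed genes. PH library 3 was likewise the lowest of its group in 16 of the 25 (64.0%, beside 38.7% of all listed genes), and library 1 was the highest in 15 of the 25 in CO and in PH alike. The median coefficient of variation among CO libraries was 40.3% over the adhesion genes and 13.7% over all listed genes, while the PH libraries had 5.01% for either set. Without CO library 3 the counts were again 23 higher, 2 lower and 15 at least 2-fold higher. The labels give no batch for this library.

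**Figure D3:**
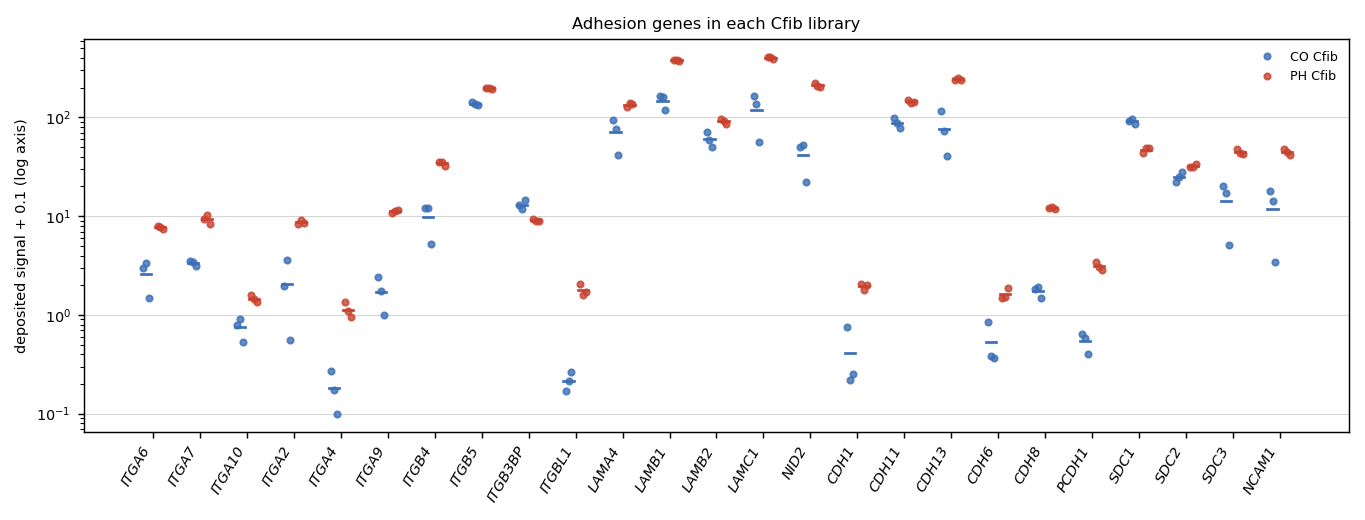
Deposited signal + 0.1 of the 25 adhesion genes in each CO (blue) and each PH (red) Cfib library on a log axis, with a bar at each group's mean. The CO points spread widely, with CO library 3 lowest in 21 of 25, and the PH points lie close together and below CO only for ITGB3BP and SDC1.

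All 4 listed laminin chains rose in PH Cfib, where 58.2% of all listed genes were called higher. LAMC1, the common gamma chain, was 163, 137 and 55.7 in CO and 407, 407 and 390 in PH (log2 fold change 1.89, standard error 0.38, adjusted p = 0.00318, limma), and 1.42 without CO library 3. LAMB1, the beta chain of embryonic and many adult laminins, rose from 164, 160 and 119 to 384, 383 and 372 (1.37, standard error 0.13, adjusted p = 1.35e-04). LAMB2 rose less, from 70.4, 59.4 and 49.8 to 96.5, 92.4 and 86.0 (0.62, standard error 0.13, adjusted p = 0.00352), and the ratio of LAMB1 to LAMB2 within a library went from 2.47 ± 0.193 to 4.15 ± 0.176 (SD, n = 3). LAMA4, the single alpha chain listed, rose from 94.9, 76.7 and 41.1 to 127, 139 and 137 (0.99, standard error 0.29, adjusted p = 0.0134), a change of 0.65 without CO library 3. LAMC1 over LAMA4 accordingly went from 1.62 ± 0.234 to 2.996 ± 0.192. LAMC1 over LAMB1 was 0.774 ± 0.272 in CO and 1.06 ± 0.00764 in PH. In CO libraries 1, 2 and 3 it was 0.993, 0.858 and 0.469, so much of this shift rested on CO library 3. Each of these 3 ratios had an exact two-sided permutation p of 0.1, the smallest 3 against 3 allow, and they tell of change only.

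**Figure D4:**
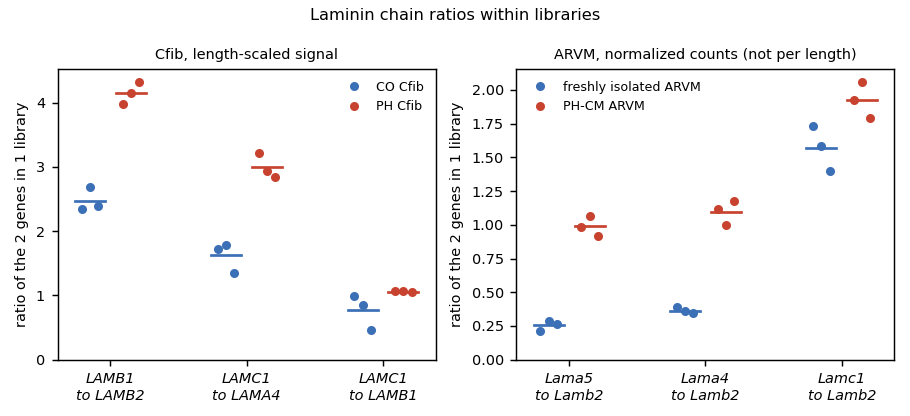
Ratio of a pair of laminin genes within each library, with a bar at the mean of 3 libraries. Cfib is on the left (CO blue and PH red) and ARVM on the right (freshly isolated blue and PH-CM red). The title of the left panel calls the Cfib signal length-scaled, which was not settled. In Cfib LAMB1 to LAMB2 moves from 2.47 to 4.15, and in ARVM Lama5 to Lamb2 moves from 0.254 to 0.989.

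At the pseudocount of 1, NID2 had the largest log2 fold change of the 25, from 50.4, 52.8 and 22.2 in CO to 222, 210 and 204 in PH (2.41, standard error 0.32, adjusted p = 5.18e-04, limma). Of the 10 other basement membrane genes 3 were listed, all higher (background 58.2%). COL18A1 was at 4.24 and COL4A1, a chain of the collagen that nidogens bind, at 4.09 on the log2 scale. All 4 listed genes of the dystroglycan and sarcoglycan complex were higher as well, SGCD by 1.07, DMD by 0.92 and SGCE by 0.59. With the PH libraries averaged DMD (adjusted p = 0.0527) and SPARC (0.0904) lost their calls.

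All listed integrin subunits of Cfib rose, where 58.2% of all listed genes were called higher. ITGB5 had 143, 137 and 135 in CO and 199, 201 and 192 in PH (log2 fold change 0.51, standard error 0.06, adjusted p = 2.56e-04, limma). ITGB4, the beta subunit of hemidesmosomes, rose from 11.9, 12.04 and 5.10 to 35.7, 35.0 and 32.4 (1.81), and its sole alpha partner ITGA6 from 2.89, 3.30 and 1.37 to 7.81, 7.74 and 7.26 (1.33). ITGA9, a receptor for tenascin C and osteopontin, rose from 2.32, 1.67 and 0.897 to 10.6, 11.1 and 11.5 (2.24, standard error 0.20, adjusted p = 1.01e-04), the largest log2 fold change of the subunits at the pseudocount of 1. ITGA7 rose evenly, from 3.38, 3.31 and 3.04 to 9.25, 10.2 and 8.24 (1.26, standard error 0.10, adjusted p = 5.57e-05). Collagen receptors followed, ITGA2 with 1.88, 3.47 and 0.462 against 8.27, 9.08 and 8.54 (1.86) and ITGA10 with a change of 0.53. ITGA4, with values near or below that pseudocount, had 0.170, 0.0743 and 0 against 1.25, 0.985 and 0.843 (0.90), although its ratio of means, 12.6, exceeded the 6.81 of ITGA9. ITGBL1, no subunit, rose from 0.0707, 0.113 and 0.165 to 1.94, 1.51 and 1.59 (1.26), and ITGB3BP, the centromere protein, fell from 12.8, 11.7 and 14.7 to 9.20, 8.87 and 8.85 (−0.49). ITGB1, ITGA5 and ITGAV were not listed.

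Leaving CDH2 and CDH5 aside, every listed cadherin of Cfib rose, where 58.2% of all listed genes were called higher. CDH13, a cadherin tethered by a lipid anchor and known as an adiponectin receptor, had 116, 73.2 and 41.0 in CO and 242, 252 and 240 in PH (log2 fold change 1.78). CDH11 was 98.3, 87.2 and 79.1 against 152, 141 and 143 (0.72, standard error 0.09, adjusted p = 4.09e-04, limma). The largest rise of a cadherin was that of CDH8, best known from brain, from 1.74, 1.82 and 1.38 to 12.1, 12.4 and 11.8 (2.31, standard error 0.09, adjusted p = 5.07e-06). CDH1, E-cadherin of epithelia, was 0.658, 0.122 and 0.152 against 1.96, 1.68 and 1.93 (1.15), CDH6 rose by 0.84 and the protocadherin PCDH1 from 0.547, 0.486 and 0.299 to 3.31, 2.99 and 2.73 (1.48). Epithelial and mesothelial markers rose beside CDH1 and ITGB4, 6 listed of 7 with CDH1 among them and a sum of 4.90 to 10.8 in CO and 73.2 to 78.0 in PH, with KRT8 listed at 0 in CO and EPCAM not listed. Of the catenins CTNNA1 was at 0.25 and CTNNB1 at −0.17. With the median of ratios CTNNA1 turned to −0.04 and lost its call, and CTNNB1 was at −0.46. The call of CTNNB1 was lost with the replicate block and without any single PH library, and with the PH libraries averaged the calls of both catenins were lost.

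The syndecans of Cfib went apart. SDC1 fell from 93.1, 96.7 and 85.4 to 43.5, 49.4 and 48.7 (log2 fold change −0.94, standard error 0.08, adjusted p = 7.16e-05, limma), whereas SDC3, the syndecan of nerve and muscle, rose from 20.2, 17.2 and 5.04 to 48.3, 43.1 and 42.8 (1.78, standard error 0.45, adjusted p = 0.00832). SDC3 over SDC1 within a library went from 0.151 ± 0.0824 to 0.954 ± 0.135 (SD, n = 3), which tells of change only. The exact two-sided permutation p of 0.1 was fixed in advance, since neither gene's groups overlapped and the genes moved in opposite directions. SDC2 had 22.2, 24.9 and 28.2 against 31.1, 31.3 and 34.1 (0.35), and its call was lost with the median of ratios (0.07, adjusted p = 0.549). NCAM1, the neural cell adhesion molecule, rose from 17.9, 14.2 and 3.34 to 47.4, 45.1 and 41.8 (2.09, standard error 0.52, adjusted p = 0.00794), and by 1.43 without CO library 3.

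Ligands of these receptors rose in PH Cfib too. All 7 listed of 10 were higher (background 58.2%), POSTN (periostin) by 3.66, NOV by 2.11 and FBLN1 by 1.89 on the log2 scale. With the PH libraries averaged, FN1 (adjusted p = 0.119), TNC (0.112) and THBS1 (0.0759) lost their calls. Of 22 focal adhesion genes only PARVB (0.75) and BCAR1 (0.35) were listed, both higher. Both calls were lost with the PH libraries averaged, and that of BCAR1 also with the median of ratios (0.07, adjusted p = 0.498).

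Of the 13 adhesion genes listed in both tables, 7 went the same way (53.8%), beside 656 of 1178 genes listed in both (55.7%). All 7 were higher in both comparisons (53.8% of the 13, beside 496 of the 1178, 42.1%): Itga4, Itgb5, Itgbl1, Lama4, Nid2, Cdh11 and Sdc2. The laminin chain Lama4 was thus higher in both, at 0.92 in ARVM and 0.99 in Cfib. Itga7, Itga6, Lamb2 and Lamc1 were lower in ARVM and higher in Cfib. Itga7 was at −0.41 in ARVM and 1.26 in Cfib, and Itga6 at −0.59 and 1.33. Lamb2 was at −0.68 and 0.62, and Lamc1 at −0.38 and 1.89. The reverse held for Sdc1, at 2.85 in ARVM and −0.94 in Cfib, and for Itgb3bp, at 1.83 and −0.49. The 2 comparisons share no library, are of different species and were normalized separately, so only their directions were set side by side, and the difference between them was not tested.

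**Figure D5:**
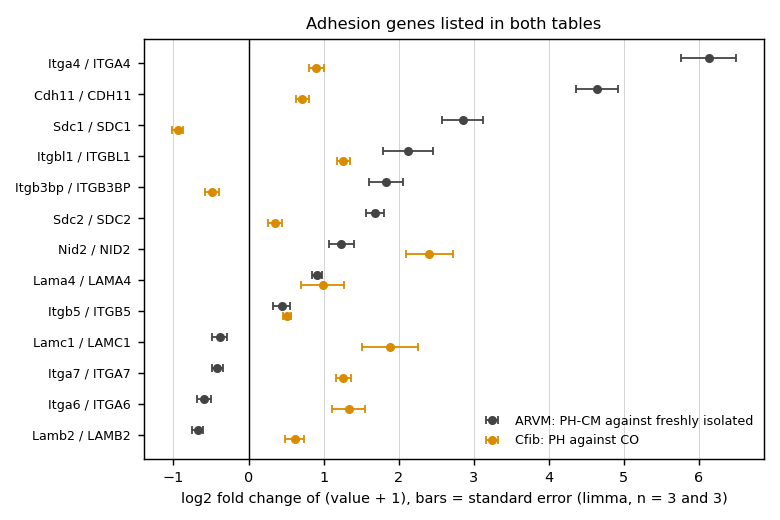
Log2 fold change of (value + 1) with standard errors from limma of the 13 adhesion genes listed in both tables, PH-CM against freshly isolated ARVM (dark) and PH against CO Cfib (orange), n = 3 and 3 in each. Lamc1, Itga7, Itga6 and Lamb2 lie left of 0 in ARVM and right of 0 in Cfib, and Sdc1 and Itgb3bp the other way.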

How the data were processed

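Of 12 libraries, 3 per group, the authors aligned rat reads to rn6 and bovine reads to bosTau8 with HISAT2 and StringTie, normalized counts by the geometric method of DESeq2, kept genes with expression above 1 in a condition and listed those with p under 0.05. Versions are not given in the sources used here. For ARVM the authors deposited a signal, the reads of a gene over a size factor of its library. All of them (100%) were whole reads within 0.01, and the smallest of PH-CM library ha211 stood for 2 reads. The deposited Cfib signal, described as normalized counts, has no step shared by the genes of a library. Its unit, and whether gene length was taken out, was not settled, and its depth is unknown.

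Groups were compared within each table in R 4.3.3 by limma 3.58.1 (moderated test with a mean-variance trend) on log2(value + 1), which understates changes of low genes, with Benjamini-Hochberg adjustment over all listed genes and a threshold of 0.05, and 2-fold as a log2 fold change of at least 1. The unequal-variance test of the study was not used, since the tables had been selected on it. This does not remove the selection, since limma ran on the same selected genes. It called 53.9% of the listed ARVM genes higher and 43.7% lower, and 58.2% and 39.4% in Cfib. A call was thus largely fixed by the selection, and its adjusted p is no independent evidence of a difference. Ratios of 2 genes were tested by exact two-sided permutation over libraries (scipy 1.17.1), for 10 pairs chosen after their values were seen. Alternatives were pseudocounts of 0.1 and 10, a minimum mean of 50 (ARVM) or 5 (Cfib), rescaling by the median of ratios, no trend, each library left out, edgeR 4.0.16 (quasi-likelihood, TMM) and DESeq2 1.42.0 on the recovered ARVM reads, and for Cfib a replicate block and the PH libraries averaged. Limits on folds over 0 reads use 3 reads per group and cover counting error only. The main limma fit of each table and the edgeR and DESeq2 fits of ARVM were tested on simulated data, without a selection of genes. The other steps were not tested in this way.

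The genes, the partner and marker lists and the tests were chosen with earlier results of these data known. Every adhesion gene is named or counted. By rule, values of each library were given for the largest called change and the highest mean of each role, for genes in both tables and for genes at 0 in a group, and up to 3 called genes were named per partner list. Other adhesion genes and further partner genes were described after their values were seen. Promoters, 250 bases before the start, came from RefSeq's rat GRCr8 table, which matched 27 of 42 symbols. No bovine or protein sequence was used. Figures were drawn with matplotlib 3.10.9.

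A further item of a marker list is not reported here.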

Additional observations from a re-analysis of the deposited data

How the results depend on the processing

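In ARVM the 32 higher and 9 lower calls ranged over all alternatives from 24 to 32 and from 8 to 10, with the lowest of 24 at a minimum mean of 50, which tests fewer genes. They ranged from 30 to 32 and from 8 to 9 with a library left out. edgeR and DESeq2 each called 31 higher and 8 lower. No adhesion gene changed sign under any of these alternatives in either table. In Cfib, averaging the PH libraries left 12 of 23 higher and 1 of 2 lower calls and 8 of 15 at least 2-fold higher, since 1 PH sample remains. A pseudocount of 10 left 7 at least 2-fold higher, since it shrinks changes of low genes. Rescaling by the median of ratios gave 1 gene, SDC1, at least 2-fold lower where there had been 0, and turned CTNNA1 to -0.036. Leaving out 1 Cfib library gave 23 higher, 2 lower and 15 to 16 at least 2-fold higher.

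CO and PH libraries of Cfib share replicate numbers. Libraries of equal number had correlations of their deviations of 0.258, 0.0312 and 0.259. Correlations between libraries of unequal number were not computed, so these values cannot decide whether the numbers pair the libraries. The main fit used no block. With the replicate block the counts were 23 higher, 2 lower, 15 at least 2-fold higher and 0 at least 2-fold lower. No paired analysis was possible for ARVM because its groups share no replicate number. Both tables hold selected genes only, Cfib depth is unknown, and low read counts limit Itgb7, Itgad and the Pcdha genes.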
